A study of Mus musculus with 8 samples.

Results

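The clustered protocadherins are cell-surface adhesion proteins of neurons, and their transcripts were followed here in brain RNA of Cstf2 D50A mutant and wild-type mice. Members were the genes whose symbol starts with Pcdha, Pcdhb or Pcdhg in the deposited count table, which gave 24 of 25815 genes: 1 alpha row, 22 beta genes and 1 gamma row. RNA selected for poly(A) tails was sequenced from 8 mice aged 50 days, with each sample described as total brain. Cerebellum markers differed greatly between these samples, as given below. The D50A group held 5 mice, whose genotype label is Cstf2D50A, and the WT group held 3 wild-type littermates. In D50A mice an alanine replaces an aspartate in CSTF2, a subunit of the cleavage stimulation factor that binds RNA beside polyadenylation sites. All 8 mice shared the C57BL/6NCrl background after 4 generations of backcrossing, and the labels name no treatment. The labels give neither sex nor litter nor whether a mutant carried 1 or more copies of the X-linked allele. Whether the brains were collected or prepared together is not stated either, so p-values rest on the spread between these 8 libraries.

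As background, the 3 clusters lie next to each other in the order alpha, beta, gamma. In the alpha and gamma clusters many variable exons, each with its own promoter, are spliced to a set of constant exons that encodes a shared cytoplasmic tail. Beta genes have no such constant exons, and each encodes its whole protein in its own large exon. A neuron uses only a few of the promoters, chosen with the help of the looping proteins CTCF and cohesin, and the proteins bind their own kind on neighbouring membranes. This recognition is known for letting the dendrites of a neuron avoid each other and for neuron survival and synapse formation. Because the choice differs from cell to cell, a library of brain RNA holds the sum over very many neurons. In such bulk RNA, fewer cells that use a gene and less RNA per cell cannot be told apart.

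The alpha and gamma rows could not be read as single isoforms. The alpha row (ENSMUSG00000007440) is called Pcdha10 in the table and Pcdha11 in GENCODE M21, and the gamma row (ENSMUSG00000023036) is called Pcdhga12 in the table and Pcdhgc4 in M21. M21, an annotation of the mm10 assembly, has 14 alpha and 22 gamma genes. The other 34 of them carry gene ID numbers of 102206 or more, whereas the highest ID number in the count table is 102128. No source used here says which exons the authors' annotation placed in these rows. In M21 the models of the 2 rows share 60.1% (Pcdha10) and 37.1% (Pcdhga12) of their 50-base windows with 15 and 25 other genes. The rows are therefore called the alpha row and the gamma row below, and no value is given for single isoforms such as the C-type Pcdhac2 or Pcdhgc3.

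The 22 beta genes each had a row under the same name as in M21. They lie on the plus strand of chromosome 18 in mm10, from 37264938 to 37524479, and 18 of them have a single annotated exon. Their exonic length ran from 2588 to 8695 bases with a median of 3714, against a median of 4146 over all tested genes. Their GC content ran from 39.1% to 49.0%, with a median of 46.0% against 49.8% over all tested genes. Pcdhb1 shared none of its 50-base windows with other genes, and the highest share was 12% in Pcdhb12. Pcdhb21 and Pcdhb22 overlap by 455 bases on the same strand, and an antisense gene covers 1927 bases of Pcdhb12. The spans of the M21 protein-coding genes Gm37013, Gm37388 and Gm42416 also cover every beta gene on the same strand. These genes have no row in the count table. No source used here states whether the counting used strand, so reads of Pcdhb12 and its antisense gene may not be told apart. How reads in the stretch shared by Pcdhb21 and Pcdhb22 were assigned is not known either.

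Total counts per library ran from 13675945 to 24802272 in D50A and from 16455364 to 20551906 in WT. Counts are given below as CPM, each count divided by its TMM-scaled library size and put on a common scale. D50A 3 stood apart from the other libraries: mitochondrial transcripts made up 11.9% of its counts, against 4.08% to 5.14% of those in the remaining 7. The quartiles of its log2 deviation from the WT mean over 16810 tested genes were -1.09 and 0.80, against -0.17 and 0.15 in D50A 1. All 10 pan-neuronal markers were tested, with 5 log2 fold changes above 0, 5 below and a median of 0.00. Among them Map2 and Syt1 were lower in every D50A library than in every WT library, as were 4.24% of all tested genes. Map2 was called lower by limma-voom (log2 fold change -0.25, adjusted p = 0.038), as were 1.2% of all genes. The edited gene, Cstf2, had 105, 122, 65.8, 120 and 129 CPM in D50A 1 to 5, against 135, 126 and 122 CPM in WT 1 to 3 (log2 fold change -0.23, SE 0.22, edgeR adjusted p = 0.84). D50A is a missense allele, so the count of this gene is no check of the labels.

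No clustered protocadherin passed the test between D50A and WT brains. The test was edgeR's quasi-likelihood test on the counts of all 8 libraries, with Benjamini-Hochberg adjustment over 16810 genes and a threshold of 0.05. It called 0 of 23 tested members, where it also called 0% of all genes in either direction. Before adjustment, 0 of 23 members had p under 0.05, against 2.5% of all genes (edgeR). The smallest unadjusted p of a member was 0.067, for Pcdhb5 (edgeR). DESeq2 called 0 of 24 members, where it called 0.155% of all genes higher and 0.03% lower. limma-voom with sample quality weights called 0 of 23, where it called 1.87% of all genes higher and 1.2% lower. Pcdhb1 was the member that the filter on low counts removed.

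The alpha row was lower in every D50A library than in every WT library, by an amount that did not pass the test. Pcdha10 had 146, 157, 90.8, 155 and 155 CPM in D50A 1 to 5, against 168.15, 172.02 and 165.01 CPM in WT 1 to 3. The groups do not overlap, with D50A 3 far below the other 4 D50A libraries. All D50A libraries were below all WT libraries for 4.24% of tested genes. The alpha row averaged 141 ± 28.3 CPM in D50A (SD, n = 5) and 168.39 ± 3.51 CPM in WT (SD, n = 3). Its log2 fold change was -0.26 (SE 0.20, edgeR adjusted p = 0.84), a ratio of 0.836 with a 95% interval from 0.61 to 1.14. Without D50A 3 the alpha row had a log2 fold change of -0.13 (SE 0.06, edgeR adjusted p = 0.55).

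The gamma row carried most clustered protocadherin counts and had a wide spread in D50A. Pcdhga12 had 589, 501, 179, 449 and 462 CPM in D50A 1 to 5, against 570, 505 and 532 CPM in WT 1 to 3. The groups overlap: D50A 1 was the highest of all 8 libraries, the other 4 D50A libraries were below all WT libraries, D50A 2 only slightly, and D50A 3 was the lowest. The gamma row averaged 436 ± 154 CPM in D50A (SD, n = 5) and 536 ± 32.8 CPM in WT (SD, n = 3). Its log2 fold change was -0.30 (SE 0.33, edgeR adjusted p = 0.84), a ratio of 0.814 with a 95% interval from 0.481 to 1.38. Leaving out D50A 3 gave -0.09, and leaving out D50A 1 as well gave -0.17 (SE 0.06, edgeR adjusted p = 0.10).

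The summed beta cluster had close means in both genotypes. The 22 genes summed to 128, 150, 111, 149 and 159 CPM in D50A 1 to 5, against 141, 145 and 147 CPM in WT 1 to 3. The WT values lie inside the D50A range, with D50A 3 and D50A 1 below WT and D50A 2, D50A 4 and D50A 5 above it. The sum averaged 139 ± 19.7 CPM in D50A (SD, n = 5) and 144 ± 3.05 CPM in WT (SD, n = 3). Without D50A 3 the D50A mean was 146 ± 13.2 CPM (SD). Among 21 tested beta genes, 6 had a log2 fold change above 0 and 15 below, with a median of -0.09 and a range of -0.49 to 0.22. Over all tested genes the median was -0.01, with 48.6% above 0 and 51.4% below. The sign of the beta median was not stable, since it was 0.09 without D50A 1 and D50A 3 and 0.07 by limma-voom.

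**Figure D1:**
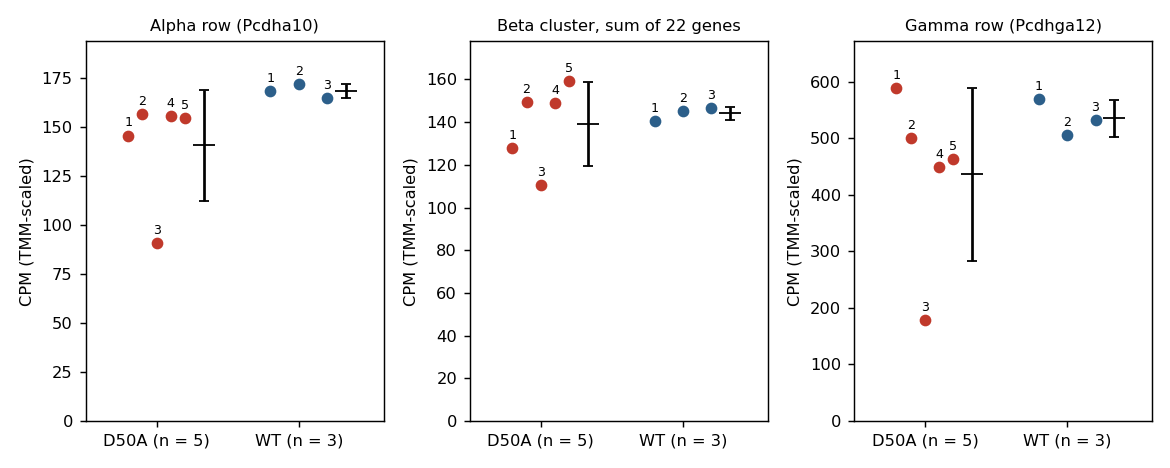
CPM of the alpha row, of the 22 beta genes summed and of the gamma row in each library, with D50A in red on the left of each panel and WT in blue on the right; the number is the library and the bars are mean ± SD (n = 5 and n = 3). D50A 3 is the lowest library in all 3 panels, at 90.8, 111 and 179 CPM, and WT values are close together.

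The 3 clusters held different shares of the clustered protocadherin counts in D50A 3 than in the other libraries. A share depends on how many bases each row covers, so it compares libraries and not levels of the clusters. The gamma row took 68.3%, 62.0%, 47.0%, 59.6% and 59.6% of these counts in D50A 1 to 5, against 64.9%, 61.4% and 63.1% in WT 1 to 3. The beta genes took 14.8%, 18.5%, 29.1%, 19.8% and 20.5% in D50A 1 to 5, against 16.01%, 17.7% and 17.4% in WT 1 to 3. D50A 3 thus had the highest beta share and the lowest gamma share of all 8 libraries, and D50A 1 had the reverse. The alpha row stayed between 16.9% and 23.9% in D50A and between 19.1% and 20.9% in WT. Members together made up 0.0300% of all counts in D50A 3, while the remaining 7 libraries held 0.0791% to 0.0894%.

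Beta genes differed far more from each other than between genotypes. Per kilobase of exon, Pcdhb9 averaged 4.09 ± 0.60 CPM per kb in D50A and 3.49 ± 0.04 in WT (SD, n = 5 and n = 3). Pcdhb20 averaged 4.09 ± 0.36 CPM per kb in D50A and 4.0 ± 0.32 in WT. These were the highest levels in the cluster. Pcdhb17 followed at 3.23 ± 0.46 CPM per kb in D50A and 3.19 ± 0.15 in WT. At the low end, Pcdhb6 averaged 0.55 ± 0.06 CPM per kb in D50A and 0.63 ± 0.10 in WT. Between neighbours in this order the ranges over 8 libraries overlapped in 20 of 21 pairs, so only coarse steps are resolved. The exception was the last step, from Pcdhb6 to Pcdhb1. Pcdhb1 had 1, 1, 1, 1 and 5 counts in D50A 1 to 5, against 4, 3 and 3 counts in WT 1 to 3. The exact Poisson 95% interval, which covers counting error only, was 0.0253 to 5.57 for 1 count and 1.62 to 11.7 for 5 counts. A difference between genotypes was not detectable for Pcdhb1 at this depth.

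The order of the beta genes was much alike in all libraries. Across the 21 tested beta genes the Spearman correlation of log2 CPM between any 2 libraries ran from 0.84 to 0.99, and was at least 0.90 without D50A 3. These values describe libraries that share gene lengths and sequence composition. Pcdhb17 had the most counts of any beta gene in D50A 1, D50A 2, D50A 4, D50A 5, WT 1 and WT 2, whereas Pcdhb9 led in D50A 3 and Pcdhb20 in WT 3. Pcdhb9 made up 14.0% of beta counts in D50A 3, against 7.22% to 8.58% everywhere else. Levels per kilobase had a Spearman correlation of 0.36 with the position along the chromosome over these 21 genes, which was not tested.

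**Figure D2:**
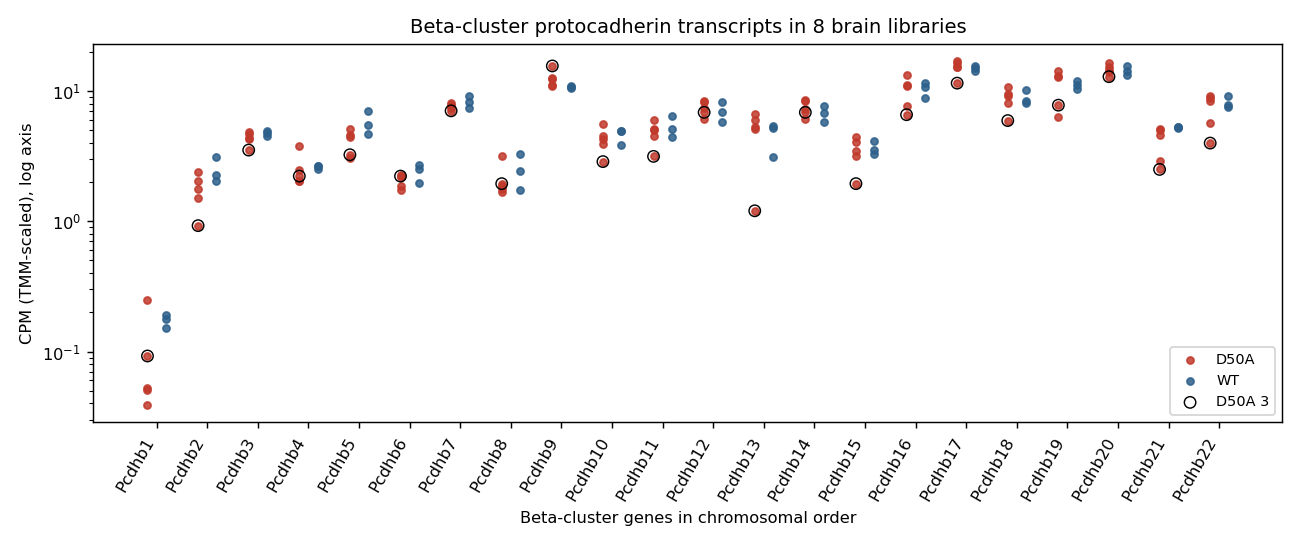
CPM of the 22 beta genes in chromosomal order on a log axis, each dot being a library, with D50A in red to the left of WT in blue and D50A 3 ringed. Genes range from under 0.3 CPM (Pcdhb1) to 16.9 CPM (Pcdhb17), red and blue dots overlap for most genes, and the ringed dot is the lowest for many of them but the highest for Pcdhb9.

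Pcdhb5, Pcdhb2, Pcdhb21 and Pcdhb9 had the smallest unadjusted p among the beta genes, and none passed. Each encodes a beta-type cell-surface recognition protein of the cadherin superfamily. Pcdhb5 had 5.10, 4.41, 3.24, 3.07 and 4.55 CPM in D50A 1 to 5, against 6.98, 5.47 and 4.63 CPM in WT 1 to 3. The groups overlap in D50A 1 and WT 3, and D50A 4 and D50A 3 were the lowest. Its log2 fold change was -0.48 (SE 0.23, edgeR adjusted p = 0.84), a ratio of 0.719 with a 95% interval from 0.502 to 1.03. Without D50A 1 and D50A 3 it was -0.50 (SE 0.18, edgeR adjusted p = 0.11).

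Pcdhb2 had 1.52, 1.77, 0.925, 2.38 and 2.03 CPM in D50A 1 to 5, against 2.02, 3.09 and 2.26 CPM in WT 1 to 3. The groups overlap, and the value of D50A 3 rests on 10 counts. Its log2 fold change was -0.49 (SE 0.29, edgeR adjusted p = 0.84), and -0.24 without D50A 1 and D50A 3.

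Pcdhb21 had 2.88, 4.97, 2.498, 4.56 and 5.09 CPM in D50A 1 to 5, against 5.29, 5.32 and 5.23 CPM in WT 1 to 3. The groups do not overlap, although D50A 5 and D50A 2 come close to WT and only D50A 1 and D50A 3 are far below. Its log2 fold change was -0.39 (SE 0.26, edgeR adjusted p = 0.84), and -0.10 without D50A 1 and D50A 3. Pcdhb22, which overlaps its 3′ end, had 5.68, 9.18, 3.98, 8.79 and 8.31 CPM in D50A 1 to 5, against 7.55, 7.80 and 9.15 CPM in WT 1 to 3. Here too D50A 1 and D50A 3 were the 2 lowest libraries while D50A 4 and D50A 5 lay among WT and D50A 2 just above WT 3.

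Pcdhb9 was the beta gene that was higher in every D50A library. It had 11.0, 12.5, 15.5, 11.1 and 12.3 CPM in D50A 1 to 5, against 10.8, 10.6 and 10.6 CPM in WT 1 to 3. The groups do not overlap, but D50A 1 and D50A 4 exceed WT 1 only slightly and D50A 3 is the highest. All D50A libraries were above all WT libraries for 3.22% of tested genes. The log2 fold change of Pcdhb9 was 0.22 (SE 0.15, edgeR adjusted p = 0.84), a ratio of 1.17 with a 95% interval from 0.917 to 1.49. Leaving out D50A 3 gave 0.15, and leaving out D50A 1 as well gave 0.18.

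The 2 beta genes with the most CPM had overlapping groups and ratios near 1. Pcdhb17 had 15.3, 16.4, 11.5, 15.3 and 16.9 CPM in D50A 1 to 5, against 15.5, 14.2 and 14.9 CPM in WT 1 to 3. Its ratio was 1.01 with a 95% interval from 0.794 to 1.30. Pcdhb20 had 15.2, 14.0, 12.9, 14.4 and 16.3 CPM in D50A 1 to 5, against 13.2, 14.1 and 15.4 CPM in WT 1 to 3. Its ratio was 1.02 with a 95% interval from 0.828 to 1.26, narrower than those of Pcdhb17 and Pcdhb9. A change within these intervals was not resolved by 8 libraries.

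Pcdhb13 had the widest interval of the tested members. It had 5.26, 6.64, 1.20, 5.14 and 6.03 CPM in D50A 1 to 5, against 3.13, 5.16 and 5.35 CPM in WT 1 to 3. D50A 3 held 13 counts and was the lowest, WT 1 was the next lowest, and the groups overlap. The ratio was 1.08 with a 95% interval from 0.529 to 2.21. Without D50A 3 the log2 fold change of Pcdhb13 was 0.36 (SE 0.19, edgeR adjusted p = 0.61).

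Pcdhb19 and Pcdhb16 split the D50A group. Pcdhb19 had 6.31, 12.8, 7.77, 14.2 and 13.1 CPM in D50A 1 to 5, against 10.3, 11.0 and 11.9 CPM in WT 1 to 3. D50A 1 and D50A 3 were below all WT libraries and D50A 2, D50A 4 and D50A 5 above them. Over all 8 libraries the log2 fold change of Pcdhb19 was -0.03 (SE 0.28, edgeR adjusted p = 0.97). Pcdhb16 had 7.59, 10.8, 6.57, 11.1 and 13.3 CPM in D50A 1 to 5, against 8.80, 11.6 and 10.8 CPM in WT 1 to 3. The same 2 libraries were the lowest, but the other D50A libraries overlapped WT. Both genes were chosen for description after their values were seen.

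The remaining 12 tested beta genes, Pcdhb3, Pcdhb4, Pcdhb6, Pcdhb7, Pcdhb8, Pcdhb10, Pcdhb11, Pcdhb12, Pcdhb14, Pcdhb15, Pcdhb18 and Pcdhb22, had overlapping groups. Their log2 fold changes ran from -0.25 for Pcdhb8 to 0.15 for Pcdhb14. Pcdhb7 averaged 7.63 ± 0.42 CPM in D50A (SD, n = 5) and 8.31 ± 0.88 CPM in WT (SD, n = 3). Pcdhb12, next to the antisense gene, averaged 7.40 ± 0.93 CPM in D50A and 6.98 ± 1.21 CPM in WT (SD).

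**Figure D3:**
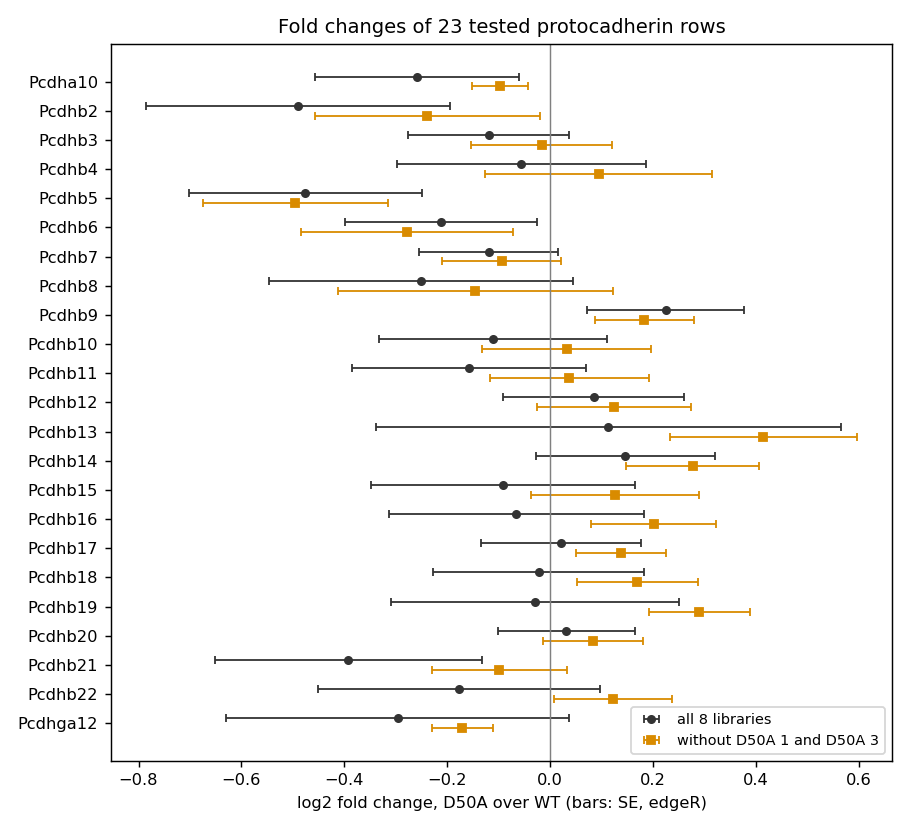
log2 fold change of D50A over WT for the 23 tested members, with SE bars, from edgeR on all 8 libraries (circles) and without D50A 1 and D50A 3 (squares). Most circles lie between -0.5 and 0.2 with bars across or near 0, and squares of 14 members lie above 0 while the alpha and gamma rows stay below 0 in both.

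Library differences within the D50A group were larger than the difference between genotypes. D50A 3 was the lowest of 8 libraries for 15 of 23 tested members and the highest for 1. How often it was the lowest over all tested genes was not counted. The deviation of D50A 3 from the WT mean on the log2 scale was -0.89 for the alpha row, -1.58 for the gamma row and a median of -0.50 over the beta genes. Over all tested genes its median was -0.10, with quartiles of -1.09 and 0.80. The alpha row and the beta median lie between these quartiles, and the gamma row lies below them. In D50A 1 the alpha row deviated by -0.21, the gamma row by 0.14 and the beta median by -0.13, with 16 of 21 beta genes below the WT mean. In D50A 2, D50A 4 and D50A 5 the beta medians were 0.04, 0.04 and 0.18, the alpha row was at -0.10, -0.11 and -0.12, and the gamma row was at -0.10, -0.25 and -0.21. WT 1 to 3 had beta medians of -0.05, 0.00 and 0.01. The mitochondrial share given above was highest in D50A 3, and its part in these low values was not tested.

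Without D50A 1 and D50A 3 no member passed either, while many other genes did. With 3 libraries left in each group, edgeR called 0 of 23 members, against 3.36% of all genes higher and 3.06% lower. The D50A libraries that were left all had high sums of cerebellum markers, given below. Genotype and cerebellum marker level cannot be told apart in this comparison. Before adjustment, 5 of 23 members had p under 0.05, a share close to the 22.2% of all genes (edgeR). They were Pcdhb19, Pcdhb13 and Pcdhb14 with log2 fold changes of 0.29, 0.41 and 0.28, and Pcdhb5 and the gamma row (Pcdhga12) with -0.50 and -0.17. The smallest adjusted p was 0.094, for Pcdhb19 (edgeR). With offsets for GC content and transcript length over all 8 libraries, edgeR called 0 of 23, with log2 fold changes of -0.10 for the alpha row, -0.11 for the gamma row and a beta median of -0.02.

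**Figure D4:**
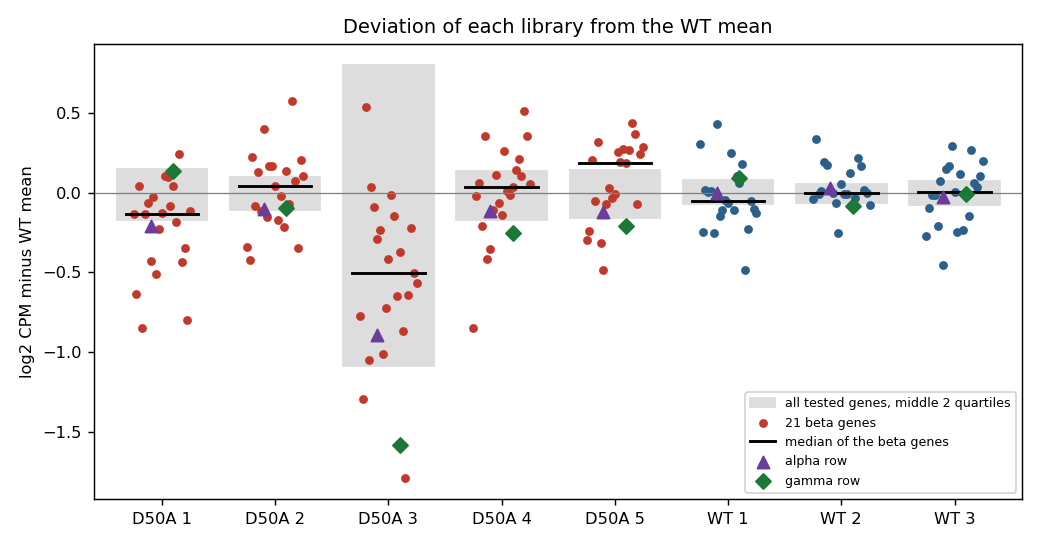
log2 CPM minus the WT mean in each library for the 21 tested beta genes (dots, with their median as a black line), the alpha row (triangle) and the gamma row (diamond), over a grey box that runs from the lower to the upper quartile of all 16810 tested genes. In D50A 3 the grey box runs from -1.09 to 0.80 and the gamma row lies at -1.58, outside it, while the beta medians of the other 7 libraries lie between -0.13 and 0.18.

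Genes that act on or with the clustered protocadherins were compared in the same test, and edgeR and DESeq2 called none of them. Of 28 tested chromatin and loop regulators, 7 had a log2 fold change above 0 and 21 below, with a median of -0.15. That median was -0.01 without D50A 3, 0.03 without D50A 1 and D50A 3, 0.03 with GC and length offsets and 0.00 by limma-voom. Ctcf, the factor that anchors promoter loops, had 62.6, 68.5, 65.9, 67.8 and 68.0 CPM in D50A 1 to 5, against 67.2, 66.0 and 67.8 CPM in WT 1 to 3, and the groups overlap. Smchd1, a chromatin protein that represses clustered protocadherins in mice, had 36.7, 47.0, 26.1, 41.1 and 45.2 CPM in D50A 1 to 5, against 47.3, 47.3 and 47.9 CPM in WT 1 to 3. D50A 2 was just below WT and D50A 3 far below (log2 fold change -0.27, SE 0.20, edgeR adjusted p = 0.84). Stag2, a cohesin subunit, had 50.0, 83.4, 198, 93.6 and 99.3 CPM in D50A 1 to 5, against 73.6, 80.9 and 79.6 CPM in WT 1 to 3. It lay below WT in D50A 1 and above in the other 4, and passed only without D50A 1 and D50A 3 (log2 fold change 0.26, edgeR adjusted p = 0.043). Stag2 was the 1 of 28 regulators called there, a share near the 3.36% of all genes called higher.

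Among 28 tested proteolysis and signalling partners, 11 had a log2 fold change above 0 and 17 below, with a median of -0.11. That median was -0.04 without D50A 3. limma-voom called 1 of 28 higher and 1 lower, against 1.87% and 1.2% of all genes, and edgeR without D50A 1 and D50A 3 called 1 higher and 3 lower, against 3.36% and 3.06%. Ret, a receptor tyrosine kinase, was the gene called higher both ways (log2 fold change 0.37 by limma-voom, adjusted p = 0.012, and 0.39 by edgeR without those libraries, adjusted p = 0.0058). The 3 called lower were Ptk2b, Prkca and Wasf1. Ptk2b encodes PYK2, a kinase that clustered protocadherins bind and inhibit. Ptk2b had 235, 182, 80.8, 278 and 301 CPM in D50A 1 to 5, against 395, 358 and 353 CPM in WT 1 to 3. All D50A libraries were below WT, and D50A 3 was the lowest. The same separation held for 3 of the 28 partners, Ptk2b, Ptk2 and Nckap1, against 4.24% of all tested genes. The log2 fold change of Ptk2b was -0.78 (SE 0.37, edgeR adjusted p = 0.84). It was called lower by limma-voom (adjusted p = 0.042) and without D50A 1 and D50A 3 (log2 fold change -0.52, edgeR adjusted p = 0.021).

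Non-clustered protocadherins, relatives that are not part of the 3 clusters, mostly had lower values in D50A, with no call over all 8 libraries. Of 12 tested, 1 had a log2 fold change above 0 and 11 below, with a median of -0.27. In 5 of the 12 every D50A library was below every WT library, against 4.24% of all tested genes. With GC and length offsets 5 were above 0 and 7 below, with a median of -0.07. Pcdh19, an X-linked adhesion gene, had 42.0, 54.9, 52.6, 48.8 and 52.3 CPM in D50A 1 to 5, against 60.3, 60.7 and 59.0 CPM in WT 1 to 3. The groups do not overlap, and here D50A 1 was the lowest library and D50A 3 was among the rest. The log2 fold change of Pcdh19 was -0.26 (SE 0.13, edgeR adjusted p = 0.84), but with GC and length offsets it was 0.34. No gene of this list passed by edgeR, DESeq2 or limma-voom over all 8 libraries. Without D50A 1 and D50A 3 edgeR called 1 of 12, Pcdh1, lower (log2 fold change -0.39, adjusted p = 0.0022), against 3.06% of all genes.

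In D50A 3, where most clustered protocadherins were lowest, some genes flanking the clusters on the same chromosome were highest and others lowest. Of 16 tested flanking genes, 10 had a log2 fold change above 0 and 6 below, with a median of 0.09, and of 0.03 without D50A 3. Zmat2, which lies before the alpha cluster and encodes a splicing-related zinc finger protein, had 194, 189, 695, 202 and 210 CPM in D50A 1 to 5, against 174, 184 and 186 CPM in WT 1 to 3. Taf7, which lies between the beta and gamma clusters and encodes a subunit of the transcription factor TFIID, had 6.27, 8.21, 14.2, 9.48 and 8.95 CPM in D50A 1 to 5, against 8.32, 6.58 and 9.44 CPM in WT 1 to 3. D50A 3 was the highest library for both, and also for Ndufa2, Sra1, Wdr55, Hars and Cd14. It was the lowest for Arap3, Ik, Diap1, Slc35a4, Fchsd1, Dnd1 and Tmco6. Diap1 had 25.4 CPM in D50A 3, against 58.8 to 68.4 CPM in the other D50A libraries. None of the 16 passed by edgeR, DESeq2 or limma-voom.

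Markers of brain regions and cell types differed between libraries beside these values. The 12 cerebellum markers summed to 311 CPM in D50A 1 and to between 1112 and 1514 CPM in D50A 2 to 5, against 309 to 322 CPM in WT. Gabra6 among them had 0, 53.2, 108, 108 and 103 CPM in D50A 1 to 5, against 0, 0.304 and 0.119 CPM in WT 1 to 3. Between D50A 2 to 5 and WT, genotype and cerebellum marker level cannot be told apart. DESeq2 called 8 and limma-voom 10 of these 12 higher, against 0.155% and 1.87% of all genes. In every marker list edgeR over all 8 libraries called 0, where it called 0% of all genes. Leaving out D50A 1 gave 7 cerebellum markers called higher by edgeR, and leaving out D50A 3 as well gave all 12. D50A 1 was the D50A library with a cerebellum sum near WT. Without it, only D50A libraries with high cerebellum sums are set against WT, so these calls cannot tell genotype from cerebellum marker level. The count over all genes without D50A 1 is given in the last section. The comparison without D50A 1 and D50A 3 also called lower 7 of 14 cortex and hippocampus and 3 of 3 pituitary markers. It called lower 1 of 8 microglia, 1 of 10 pan-neuronal and 1 of 8 astrocyte markers. Called higher there were 3 of 8 astrocyte and 2 of 10 oligodendrocyte markers. Over all genes it called 3.36% higher and 3.06% lower. The 14 cortex and hippocampus markers summed to 1493 CPM in D50A 3 and to between 3002 and 4389 CPM in the other D50A libraries, against 3902 to 4480 CPM in WT. Of these 14, limma-voom called 3 lower, against 1.2% of all genes. The 10 oligodendrocyte markers summed to 22001 CPM in D50A 3 and to between 10746 and 11868 CPM in the other D50A libraries, against 9837 to 10647 CPM in WT. The 8 microglia markers summed to 611 CPM in D50A 3 and to between 244 and 292 CPM in the other D50A libraries, against 273 to 279 CPM in WT. Serotonergic neurons are known to rely on the alpha C-type isoform Pcdhac2. Their 6 tested markers had sums between 58.4 and 75.9 CPM in the D50A libraries and between 55.5 and 65.6 CPM in the WT libraries. Of the 6, 4 had a log2 fold change above 0 and 2 below, with a median of 0.22. Tph2 and Ddc were higher in every D50A library than in every WT library, as were 3.22% of all tested genes. Tph2 was at 1.06 CPM in WT 1, against 6.48 and 5.46 CPM in WT 2 and WT 3. The 3 tested pituitary markers summed to between 3.07 and 14.2 CPM in the D50A libraries, against 19.0, 836 and 3.27 CPM in WT 1 to 3, so that WT 2 stood apart. Median log2 fold changes were 0.19 for 8 astrocyte, 0.52 for 5 olfactory bulb, 0.29 for 6 choroid plexus and -0.07 for 8 endothelial and meningeal markers. Single libraries moved these medians: without D50A 1 the olfactory bulb median was -0.24 and the endothelial one -0.17, and without D50A 3 the astrocyte median was 0.07, the choroid plexus one 0.12 and the endothelial one -0.01. The olfactory bulb median was also 1.31 without WT 1 and 0.08 without WT 2, the choroid plexus one 0.17 without WT 2, and the endothelial one 0.01 without WT 1. The last was also -0.03 without D50A 5 and -0.13 without WT 3. The part of these differences in the protocadherin values was not tested. The cerebellum sum was high in D50A 2 to 5 and near WT in D50A 1. The beta sum was above WT in D50A 2, D50A 4 and D50A 5 and below WT in D50A 1 and D50A 3.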

How the data were processed

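The authors deposited raw counts per gene, with no normalization. The build was mm10, and the tools listed were STAR 2.5, HTSeq 0.6.1, CASAVA 1.8 and DESeq2 2, per the submitters' processing notes. No source used here states the annotation release, the counting mode or the strand setting. Libraries were made with a NEBNext Ultra kit after oligo dT selection, per the labels' protocols. Groups came from the genotype label and replicate numbers follow accession order.

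Counts of all 8 libraries were tested with edgeR 4.0.16 in R 4.3.3 (filterByExpr, TMM, quasi-likelihood test, Benjamini-Hochberg adjustment over 16810 genes). SE is the log2 fold change over the square root of F, and values of log2 CPM include a prior count of 2. Alternatives were DESeq2 1.42.0, limma-voom (limma 3.58.1) with sample quality weights, other scaling and filters, libraries left out, and lowess offsets for GC content and length. Positions, lengths and GC content came from GENCODE M21, which matched 25484 gene IDs. Named genes were, per cluster, the 4 with the smallest p and the 3 with the highest CPM, and up to 4 per other list by p. Other named genes, Ctcf and Taf7 included, were chosen after their values were seen. Members and lists were chosen with earlier results of these data known. The functions were tested on simulated data. Within groups, pairs of libraries differed by 3.36 or more in chi-square per degree of freedom, so none was counted as a copy. Members lie on a chromosome whose sequence is not reported here.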

Additional observations from a re-analysis of the deposited data

Results flagged for a closer look

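Values of the 5 D50A libraries were checked for a library far from the other 4. Of 45 values checked, 13 held such a library. Chance alone would mark about 1 in 20 independent groups. The values checked here share the same 5 libraries, so the 13 cannot be set against that rate. WT, with 3 libraries, could not be checked. Most of the 13 concern D50A 3.

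Among the members, D50A 3 stood apart for the alpha row (Pcdha10, 90.8 CPM against 146 to 157 in the other 4) and for Pcdhb13 (1.20 CPM against 5.14 to 6.64). Pcdhb4 was high in D50A 4, at 3.76 CPM against 2.02 to 2.47. Pcdhb8 was high in D50A 2, at 3.19 CPM against 1.68 to 1.94. Pcdhb1 reached 0.247 CPM in D50A 5 against 0.0389 to 0.0925, which is 5 counts against 1 in each of the others.

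In the flagged genes outside the clusters, D50A 3 was far above the rest of the D50A group. Hdac1 was at 52.5 CPM against 34.9 to 38.7, and Hdac2 at 128 CPM against 79.7 to 85.7. Pdcd10 was at 234 CPM against 38.4 to 51.9, Rhoa at 267 CPM against 135 to 149, and Psenen at 93.4 CPM against 33.2 to 34.2. Ndufa2 was at 414 CPM against 59.3 to 74.6, Zmat2 at 695 CPM against 189 to 210, and Wdr55 at 20.8 CPM against 8.77 to 9.64.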

How the results depend on the processing

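No clustered protocadherin was called under any alternative run. The count over all genes was 0 by edgeR, 37 by DESeq2, 517 by limma-voom, 1065 without D50A 1 and D50A 3, and 0 to 26 with 1 library left out (26 without D50A 1). The alpha row and the gamma row were below 0 in all settings. Some beta genes changed sign, and none of these values passed. By limma-voom the log2 fold change was 0.035 for Pcdhb4, 0.044 for Pcdhb11, 0.087 for Pcdhb15, 0.14 for Pcdhb16, 0.15 for Pcdhb18, 0.22 for Pcdhb19 and 0.082 for Pcdhb22. Without D50A 1 and D50A 3 it was 0.094 for Pcdhb4, 0.032 for Pcdhb10, 0.037 for Pcdhb11, 0.13 for Pcdhb15, 0.20 for Pcdhb16, 0.17 for Pcdhb18, 0.29 for Pcdhb19 and 0.12 for Pcdhb22. With GC and length offsets it was 0.0043 for Pcdhb16, 0.025 for Pcdhb18, 0.093 for Pcdhb19, 0.34 for Pcdh19 and 0.14 for Pcdh17. Pcdhb18 was at 0.0013 with RLE scaling and 4.5e-06 by DESeq2, and Pcdhb17 at -6.1e-06 with library totals only. With 1 library left out, values spanned 0 for Pcdhb4 (-0.25 to 0.035), Pcdhb8 (-0.46 to 0.0012), Pcdhb11 (-0.28 to 0.0013), Pcdhb12 (-0.033 to 0.22), Pcdhb13 (-0.10 to 0.36), Pcdhb15 (-0.20 to 0.047), Pcdhb16 (-0.20 to 0.054), Pcdhb17 (-0.023 to 0.11), Pcdhb18 (-0.11 to 0.10), Pcdhb19 (-0.15 to 0.13) and Pcdhb20 (-0.024 to 0.090). The cause of these changes was not tested. No paired analysis was possible because the labels give neither litter nor any pairing of animals. Depth limits the low beta genes, such as Pcdhb1 with 1 to 5 counts per library.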
